A study of Mus musculus with 4 samples.

Results

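The 10 enzymes and enzyme relatives described here methylate lysine 4 (H3K4) or lysine 36 (H3K36) of histone H3, or carry the same domain, and were followed in mouse spermatocytes with and without TDRD6, a Tudor domain protein of the chromatoid body. Their genes are *Kmt2a*, *Kmt2b*, *Kmt2c*, *Kmt2d*, *Kmt2e*, *Setd1a*, *Setd1b*, *Setd2*, *Nsd1* and *Prdm9*. They were chosen by name, 10 of 37718 gene rows, and with them came their 444 exon segments of 359565, 349 annotated and 5 unannotated junctions, and 291 introns of 207562. *Kmt2e* entered because its exon segment 34 differed between the genotypes in these same samples. All genotype differences of *Kmt2e* are therefore given as a description, without a test, and only the other 9 genes carry tests.

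RNA came from 2 *Tdrd6*+/- and 2 *Tdrd6*-/- samples of testis cells from mice at 20 dpp (days post partum). In both genotypes the cells carried human CD4 under control of the *Tdrd6* promoter and were isolated with magnetic beads against it, which enriches diplotene spermatocytes, and each sample was a pool of at least 4 mice. The heterozygous samples are the controls, so no wild-type sample is part of the comparison. Nothing in the labels says whether the 2 pools of a genotype were prepared on separate days, and p-values measure only the spread between these samples.

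Methylation of H3K4 marks promoters and enhancers, and methylation of H3K36 marks transcribed gene bodies. In mammals the SET1 enzymes SETD1A and SETD1B place H3K4me3 at active promoters, KMT2A and KMT2B act at promoters of developmental genes, and KMT2C and KMT2D place H3K4me1 at enhancers. KMT2E carries a SET domain and a PHD finger that binds H3K4me3, and is generally regarded as lacking methyltransferase activity. SETD2 places H3K36me3 behind elongating RNA polymerase II and NSD1 places H3K36me2, while PRDM9 places both H3K4me3 and H3K36me3 at recombination hotspots early in meiotic prophase.

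The unit is the number of fragments counted on a gene, exon segment, junction or intron. An exon segment is a stretch of exon cut at every annotated exon border, numbered along the chromosome, so that on the minus strand (*Kmt2a*, *Kmt2b*, *Kmt2c*, *Kmt2d*, *Prdm9*) the highest number is the 5′ end. The positions shown here are exon-exon borders of *Kmt2e* and *Kmt2d*. None of the 3 *Kmt2d* junctions deep enough for the test of use given below passed, and *Kmt2e* carries no test. The border of *Kmt2d* segments 56 and 55 had too few counts to enter that test. With no independent filtering of low counts it passed (DESeq2). The borders are shown as coding sequence of the transcript, 20 bases on each side, 5′ to 3′, with the 8 bases on each side of the border in capitals. The first 3 follow *Kmt2e* from a 5′ border to the border of its last segment, and the other 2 are a 5′ and the most 3′ border of *Kmt2d*.
*Kmt2e*, segments 5 and 6: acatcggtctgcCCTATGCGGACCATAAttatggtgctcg
*Kmt2e*, segments 21 and 22: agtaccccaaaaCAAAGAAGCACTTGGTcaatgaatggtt
*Kmt2e*, segments 33 and 34: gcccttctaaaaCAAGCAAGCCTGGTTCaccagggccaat
*Kmt2d*, segments 56 and 55: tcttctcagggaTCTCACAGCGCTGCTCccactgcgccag
*Kmt2d*, segments 3 and 2: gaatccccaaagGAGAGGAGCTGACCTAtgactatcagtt

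The introns removed at these *Kmt2e* borders are chr5:23463131-23464702, chr5:23493508-23495985 and chr5:23500813-23501523 on the plus strand of mm10. Those of *Kmt2d* are chr15:98865664-98865788 and chr15:98834593-98834715 on the minus strand. Reads across the *Kmt2e* border of segments 5 and 6 numbered 79 and 89 in *Tdrd6*+/- and 92 and 60 in *Tdrd6*-/-. Across the border of segments 33 and 34 they numbered 43 and 58 in *Tdrd6*+/- and 11 and 15 in *Tdrd6*-/-. *Kmt2d* ran the other way. Its 5′ border of segments 56 and 55 had 51 and 49 reads in *Tdrd6*+/- and 9 and 12 in *Tdrd6*-/-. Its most 3′ border had 50 and 63 reads in *Tdrd6*+/- and 85 and 62 in *Tdrd6*-/-. Scaled for library size, the *Kmt2e* border of segments 5 and 6 had 3.02 and 3.20 CPM in *Tdrd6*+/- and 2.91 and 1.88 CPM in *Tdrd6*-/-, a log2 difference of -0.38. The most 3′ border of *Kmt2d* had 1.91 and 2.26 against 2.69 and 1.94 CPM, a log2 difference of 0.15, and was the one of these 4 borders at which the scaled genotypes overlapped.

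Depth was 43778449 to 47221554 tallied fragments per sample, with 26454326 to 31388750 counts on genes and 9603669 to 13937818 on introns. *Tdrd6* itself gave 1269 and 1412 CPM (the count relative to library size, scaled by TMM) in *Tdrd6*+/- and 11.4 and 12.5 CPM in *Tdrd6*-/-, as the labels state. Spermatocyte markers such as *Sycp3*, *Hspa2* and *Ldhc* were abundant. Their summed level was 7865 to 8112 CPM in *Tdrd6*+/- and 8116 to 9258 CPM in *Tdrd6*-/-, with *Sycp1* higher (log2 fold change 0.60, adjusted p = 0.0467, edgeR) and *Piwil1* lower (-0.44, adjusted p = 0.0773) in *Tdrd6*-/-. Of the 6 round spermatid markers, *Acrv1* (0.96, adjusted p = 0.0565, edgeR) and *Spaca1* (0.83, adjusted p = 0.0359) were higher in *Tdrd6*-/-. The other 4 did not reach the count filter, and the summed level went from 9.20 to 13.1 CPM in *Tdrd6*+/- to 19.7 to 21.7 CPM in *Tdrd6*-/-. Lists for spermatogonia and early meiosis (23.73 to 24.02 against 27.8 to 31.7 CPM), Sertoli cells (33.9 to 38.5 against 37.7 to 44.1), Leydig cells (17.2 to 21.2 against 19.8 to 22.1) and peritubular, endothelial and macrophage cells (5.65 to 7.65 against 6.09 to 8.98) had no gene past the test (edgeR, 2 at an unadjusted p under 0.05, *Stra8* and *Sox9*), and none of their genes was at 0 in all samples. What these shifts in the cells contributed to the results was not tested, and in a bulk sample fewer cells of a type and less RNA per cell cannot be told apart. The Leydig sum includes *Insl3*, which shares its row with another gene. That row had 7.94 and 14.1 CPM in *Tdrd6*+/- and 13.0 and 12.3 CPM in *Tdrd6*-/-.

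Levels between genes were compared as CPM per kb of annotated exon, for the 9 genes with a gene row of their own. *Setd2* was the most abundant, with 34.99 ± 9.14 CPM per kb (SD, n = 4 samples of both genotypes), rank 1918 of 18827 genes with at least 10 counts. *Kmt2e* followed with 14.2 ± 5.30, then *Kmt2b* with 10.05 ± 1.47, *Nsd1* with 9.43 ± 1.58 and *Kmt2d* with 7.49 ± 2.15 CPM per kb. *Kmt2c* had 3.42 ± 0.795, *Setd1b* 1.19 ± 0.666, *Kmt2a* 0.757 ± 0.238 and *Prdm9* 0.600 ± 0.049 CPM per kb, which put *Prdm9* at rank 12700. Only *Setd2*, at 23.96 to 44.05 CPM per kb, and *Kmt2c*, at 2.26 to 4.00 CPM per kb, had ranges over the 4 samples that were free of overlap with their neighbours. *Kmt2e* (8.32 to 19.2), *Kmt2b* (8.51 to 11.7), *Nsd1* (7.73 to 11.5) and *Kmt2d* (5.03 to 9.32 CPM per kb) overlapped in turn, as did *Setd1b* (0.588 to 2.07), *Kmt2a* (0.429 to 0.973) and *Prdm9* (0.529 to 0.642 CPM per kb).

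**Figure D1:**
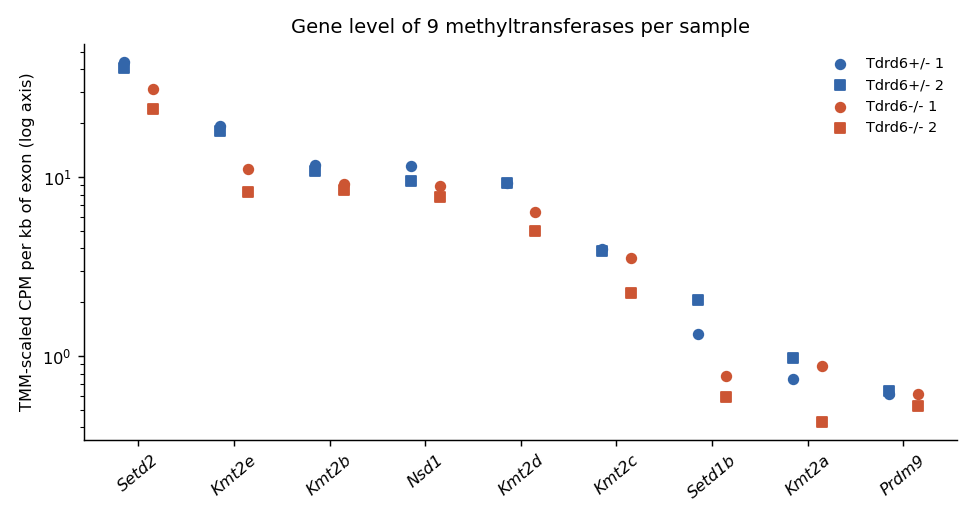
Gene level of the 9 methyltransferase genes with a gene row of their own. The log axis gives TMM-scaled CPM per kb of annotated exon, each point is 1 sample, blue marks *Tdrd6*+/- and orange *Tdrd6*-/-. Both *Tdrd6*-/- points lie below both *Tdrd6*+/- points for every gene drawn except *Kmt2a* and *Prdm9*.

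*Setd1b*, *Kmt2d* and *Setd2* were lower in *Tdrd6*-/- cells, and none of the 9 tested genes was higher (edgeR, and likewise DESeq2). At an unadjusted p under 0.05 there were 7 lower and 0 higher. Of all 16555 genes tested, 3.78% were called lower at a false discovery rate of 0.1 and 1.02% higher. The fitted change was below 0 for all 9, against 48.3% of all genes, and both *Tdrd6*-/- samples lay below both *Tdrd6*+/- samples for 7 of the 9, against 23.4% of all genes. These genes have long exonic sequence, 7 of the 10 with at least 8000 bp of exon. Among the 1567 tested genes of that length 188 were called lower, 70.8% had a change below 0, and the median log2 change was -0.15.

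*Setd1b*, the catalytic subunit of one SET1 complex, fell most. Its count was 423 and 696 in *Tdrd6*+/- and 297 and 227 in *Tdrd6*-/-, or 16.1, 25.0, 9.39 and 7.09 CPM. The groups did not overlap, though the *Tdrd6*+/- samples were also apart from each other (20.6 ± 6.25 against 8.24 ± 1.63 CPM, SD, n = 2 each). The log2 fold change was -1.32 (standard error, SE, 0.22, adjusted p = 0.00111, edgeR's test by quasi-likelihood, adjusted after Benjamini-Hochberg).

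*Kmt2d*, the enhancer enzyme also called MLL4, gave 184 and 185 CPM in *Tdrd6*+/- and 126 and 99.8 CPM in *Tdrd6*-/-. All 4 samples respected the genotype, and the *Tdrd6*+/- samples were nearly equal. The log2 fold change was -0.71 (SE 0.14, adjusted p = 0.00433, edgeR). *Setd2*, the H3K36me3 enzyme, gave 368 and 340 CPM against 261 and 200 CPM. Here too the groups were apart, with a log2 difference of -0.62 (SE 0.14, adjusted p = 0.0142, edgeR). Without *Tdrd6*-/- replicate 2 only *Setd1b* passed. *Kmt2d* then had a log2 change of -0.54 (adjusted p = 0.258, edgeR, range over the alternatives 4.48e-06 to 0.258) and *Setd2* one of -0.43 (adjusted p = 0.495, range 8.46e-05 to 0.495). With no filter on low counts none of the 3 passed (adjusted p = 0.160 for *Setd1b*, 0.175 for *Kmt2d* and 0.264 for *Setd2*, edgeR).

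The other genes of the group did not pass. *Kmt2b* had 112, 104, 87.9 and 81.7 CPM in *Tdrd6*+/- 1 and 2 and *Tdrd6*-/- 1 and 2, with a log2 fold change of -0.35 (SE 0.13, adjusted p = 0.195, edgeR). *Kmt2c*, the paralogue of *Kmt2d*, had 81.1, 78.7, 72.1 and 45.9 CPM (-0.44, SE 0.17, adjusted p = 0.200, edgeR). *Nsd1* had 147, 121, 115 and 98.8 CPM (-0.33, SE 0.14, adjusted p = 0.261, edgeR). In these 3 genes the genotypes did not overlap, but the adjusted p was above 0.1. With the replicate number as a block *Kmt2c* passed (-0.47, adjusted p = 0.0234, edgeR).

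*Kmt2a* and *Prdm9* were the genes whose genotypes overlapped. *Kmt2a*, a low transcript here, had 12.4, 16.2, 14.7 and 7.16 CPM (-0.39, SE 0.25, adjusted p = 0.550, edgeR), and its single low value came from *Tdrd6*-/- replicate 2. Without *Tdrd6*-/- replicate 1 *Kmt2a* passed (-1.001, adjusted p = 0.0255, range over the alternatives 0.0255 to 1.00, edgeR), as did *Kmt2c* (-0.80, adjusted p = 0.0136, range 0.0136 to 1.00). Without *Tdrd6*+/- replicate 2 *Nsd1* passed (-0.46, adjusted p = 0.0795, range 0.0795 to 1.00, edgeR). *Prdm9* was counted at 69, 77, 84 and 73 fragments, or 2.63, 2.76, 2.66 and 2.28 CPM (-0.13, SE 0.29, adjusted p = 0.906, edgeR). *Prdm9* acts before diplotene, and at 69 to 84 fragments per sample a modest difference would not be detectable.

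*Setd1a* shares its exonic row with its downstream neighbour *Hsd3b7*, and the counts of the pair cannot be separated. The shared row had 42.0, 39.0, 32.6 and 28.2 CPM, and its log2 fold change was -0.41 (SE 0.16, adjusted p = 0.195, edgeR). No exon segment or junction of this row was tested. *Kmt2e*, described without a test, had 144 and 135 CPM in *Tdrd6*+/- and 83.4 and 62.3 CPM in *Tdrd6*-/- (log2 fold change -0.94, SE 0.15).

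The difference in *Kmt2e* was graded along the transcript. In segment 2, in the 5′ untranslated part, the level was 7.56 and 6.79 CPM in *Tdrd6*+/- and 7.87 and 6.47 CPM in *Tdrd6*-/-, so that the genotypes overlapped. Segment 6, inside the coding region, had 10.5 and 9.91 CPM against 9.42 and 7.19 CPM. By segment 21 the level was 14.7 and 14.5 CPM against 9.08 and 6.97 CPM. A step followed at the border whose sequence is given above as segments 21 and 22. Segment 22 had 9.20 and 8.44 CPM against 3.54 and 3.06 CPM, and segment 23 had 4.93 and 4.88 CPM against 1.55 and 1.19 CPM. The log2 level difference went from -0.86 in segment 21 to -1.42 in segment 22 and -1.84 in segment 23. From there to the end it stayed between -1.54 and -1.98.

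The last segment, 34, lies at chr5:23501524-23504235 and is 2712 bp long, of which 1521 bp are coding. It had 441 and 437 counts in *Tdrd6*+/- and 141 and 132 in *Tdrd6*-/-, and segment 33 beside it had 88 and 117 against 32 and 36. As a share of the gene count, segment 34 took 11.7% and 11.6% in *Tdrd6*+/- and 5.34% and 6.62% in *Tdrd6*-/-. Segment 2 took 5.25% and 5.01% against 9.44% and 10.4%. Segment 34 was therefore one of a run of low segments and not an isolated one. Its difference relative to the rest of the gene (log2 -1.06) was close to that of segments 28 (-1.06) and 32 (-1.05).

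Junction reads of *Kmt2e*, which come only from joined exons, showed the same course. Such fragments can also count on the segments they join, so the courses of junctions and segments are not independent. Over the first 10 of its 30 junctions the level was 27.1 ± 0.137 CPM in *Tdrd6*+/- and 18.8 ± 3.63 CPM in *Tdrd6*-/- (SD, n = 2 each), a log2 difference of -0.53. Over the middle 10 it was 31.4 ± 0.375 against 17.3 ± 4.48 CPM, a difference of -0.86. Over the last 10 it was 19.9 ± 0.265 against 5.25 ± 0.978 CPM, a difference of -1.92. The border of segments 21 and 22 lay between, with 67 and 78 reads against 39 and 31. Introns of *Kmt2e* differed less, with log2 differences of -0.41, -0.20 and -0.60 in the first, middle and last 9 of its 27 introns on the scale of intron counts. The intron at the step, chr5:23493508-23495985, had 187 and 141 counts in *Tdrd6*+/- and 161 and 109 in *Tdrd6*-/-, which also overlap when scaled (14.8 and 11.7 against 11.9 and 10.7 intronic CPM).

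In *Kmt2d* the low segments were at the 5′ end. Of its 35 segments and 3 junctions that were tested for their use relative to the rest of the gene, 7 segments passed, 6 in the 5′ part with less use and 1 at the 3′ end with more. No other tested gene of the group had a segment or junction past the test (DESeq2), with 13 of 153 at an unadjusted p under 0.05. Over all 147666 segments and junctions tested 0.221% passed, and of the 191 in the group outside *Kmt2e* 3.66% (7) passed. The 7 belong to 1 gene and share its reads, so they are not 7 independent results. With edgeR's usage test no segment or junction of the tested genes passed, those of *Kmt2d* included, and 81 did over all genes.

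Segment 56 of *Kmt2d*, a coding exon of 110 bp at chr15:98865789-98865898, had 93 and 87 counts in *Tdrd6*+/- and 23 and 26 in *Tdrd6*-/-. Segment 55, the next coding exon, of 163 bp at chr15:98865501-98865663, had 115 and 109 counts against 31 and 34. The genotypes were far apart in both. The whole coding sequence of these exons is shown because their levels differed most among the segments of the gene.
*Kmt2d*, segment 56: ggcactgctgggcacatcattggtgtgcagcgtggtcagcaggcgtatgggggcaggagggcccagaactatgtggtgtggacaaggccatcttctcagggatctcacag
*Kmt2d*, segment 55: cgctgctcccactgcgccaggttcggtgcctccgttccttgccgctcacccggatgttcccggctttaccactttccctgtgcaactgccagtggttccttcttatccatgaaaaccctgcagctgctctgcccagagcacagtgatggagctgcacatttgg

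As a share of the gene count, segment 56 went from 1.81% ± 0.170 to 0.695% ± 0.168 (SD, n = 2 each), with a log2 change in use of -1.41 (SE 0.33, adjusted p = 0.0177, DESeq2 likelihood ratio test). Segment 55 went from 2.25% ± 0.191 to 0.921% ± 0.203 (-1.33, SE 0.30, adjusted p = 0.00857, DESeq2). Segment 54 had a change of -1.20 (SE 0.31, adjusted p = 0.0484, DESeq2) and segment 58 one of -1.10 (SE 0.27, adjusted p = 0.0392). The remaining 2 of the 6, segments 57 (-1.11, adjusted p = 0.0626) and 50 (-1.21, adjusted p = 0.0806, DESeq2), also passed and were nearer to the threshold. Segments 54 to 58 follow each other in the transcript, close to its 5′ end.

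At the 3′ end, segment 2 of *Kmt2d*, which takes in nearly all of its last exon, is 2921 bp long, at chr15:98831672-98834592. It had 924 and 908 counts in *Tdrd6*+/- and 1004 and 819 in *Tdrd6*-/-, and its share of the gene count rose from 18.4% ± 1.09 to 25.4% ± 0.324 (log2 change in use 0.59, SE 0.12, adjusted p = 0.000656, DESeq2). In level, scaled for library size, it was 35.3 and 32.6 CPM against 31.8 and 25.6 CPM, a log2 difference of -0.24. All 56 segments of *Kmt2d* with at least 40 counts in total were lower in *Tdrd6*-/-, from -2.12 to -0.22 on the log2 scale. With edgeR's usage test none of the 7 passed. Without *Tdrd6*-/- replicate 1 none passed either, and 1 passed when *Tdrd6*+/- replicate 1 (segment 2) or *Tdrd6*-/- replicate 2 (segment 55) was left out. The direction of all 7 was kept in each of these fits.

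To set the genes side by side, the segments of each were divided by number into a first (5′), middle and last (3′) section of nearly equal segment number. In *Kmt2d* the first section had 50.9 ± 5.76 CPM in *Tdrd6*+/- and 16.4 ± 2.90 CPM in *Tdrd6*-/- (SD, n = 2 each), a log2 difference of -1.63. The middle section differed by -1.08 and the last by -0.48. In *Kmt2e* the 3 sections differed by -0.53, -1.001 and -1.81, the last being 76.1 ± 2.88 against 21.7 ± 3.14 CPM. The log2 ratio of the last to the first section in *Kmt2d* was 1.53 and 1.78 in *Tdrd6*+/- and 2.75 and 2.85 in *Tdrd6*-/-. In *Kmt2e* it was -0.36 and -0.32 against -1.66 and -1.59.

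The shift of this ratio between genotypes was 1.149 for *Kmt2d* and -1.28 for *Kmt2e*. Among 7283 genes with at least 9 segments and 500 counts the median was -0.07, and the 5th and 95th percentiles were -0.52 and 0.39. 12 genes, *Kmt2d* among them, had a shift as high or higher, and 13, with *Kmt2e*, one as low or lower. These ranks are a description, since *Kmt2e* was chosen for its 3′ segment and the division into sections was made after the segment values of both genes had been seen. Both *Tdrd6*-/- samples lay above both *Tdrd6*+/- samples in 12.4% of the genes and below in 32.2%.

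In the other genes the shift was smaller. It was 0.37 in *Kmt2a* and *Setd2*, 0.34 in *Prdm9*, 0.28 in *Kmt2b*, -0.16 in *Nsd1*, -0.25 in *Kmt2c* and -0.29 in *Setd1b*, all within the 5th and 95th percentiles of the 7283 genes. The *Kmt2a* shift came from *Tdrd6*-/- replicate 2, with ratios of 0.61 and 0.56 in *Tdrd6*+/- and 0.62 and 1.28 in *Tdrd6*-/-. The *Prdm9* ratios overlapped between genotypes (0.29 and 1.02 against 1.22 and 0.77). In *Setd2* the log2 difference was -0.70, -0.59 and -0.34 in the 3 sections, and the lowest segments were 15 and 18, at -0.92 and -0.94. The segment of *Setd2* with the smallest p was the large segment 4, with 4466 and 4386 counts in *Tdrd6*+/- and 3447 and 2663 in *Tdrd6*-/- (log2 change in use -0.27, adjusted p = 0.439, DESeq2). In *Setd1b* all sections were low, at -1.10, -1.89 and -1.38. Its last 5 junctions had 59 and 82 reads in *Tdrd6*+/- and 15 and 15 in *Tdrd6*-/-. An exception inside *Setd1b* was segment 24 at chr5:123164108-123165162, with 16 and 14 counts against 20 and 24, too few to enter the test. In *Kmt2b* the segment with the smallest p was 34, a 90 bp segment at chr7:30579926-30580015, with 148 and 117 counts against 75 and 70 (log2 change in use -0.78, adjusted p = 0.270, DESeq2).

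**Figure D2:**
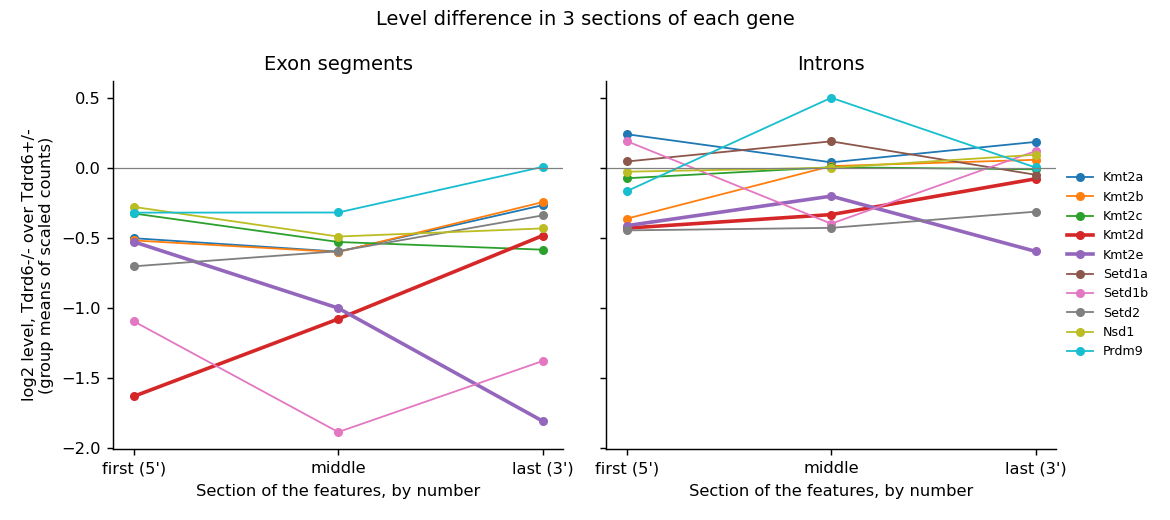
Level difference by sections of the exon segments (left) and introns (right), in 5′ to 3′ order, for each gene. The vertical axis is the log2 ratio of group means (n = 2 each), *Tdrd6*-/- over *Tdrd6*+/-, and *Setd1a* is drawn for introns only. *Kmt2d* rises from -1.63 to -0.48 and *Kmt2e* descends from -0.53 to -1.81 in exon segments, while the introns of both stay between -0.60 and -0.08.

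On the separate scales of intron and gene counts, each intronic total differed less than, or in the other direction from, its gene count, and no intronic total of the 9 tested genes passed (edgeR, and likewise DESeq2; 0 at an unadjusted p under 0.05), against 1.42% of 15025 genes. *Setd2* had the largest, with 586 and 450 intronic CPM in *Tdrd6*+/- and 400 and 374 in *Tdrd6*-/- (log2 fold change -0.42, SE 0.22, adjusted p = 0.398, edgeR). *Kmt2d* had 60.9 and 58.7 against 48.7 and 52.7 intronic CPM (-0.24, SE 0.22, adjusted p = 0.672, edgeR). *Setd1b*, lowest in exons, had 12.9 and 21.4 against 15.7 and 18.4 intronic CPM (-0.01, SE 0.26, adjusted p = 0.989, edgeR), so that its introns overlapped between genotypes. The remaining 6 ran from -0.07 in *Kmt2b* to 0.24 in *Prdm9*. *Kmt2e* had 356 and 278 against 253 and 241 intronic CPM (-0.36, SE 0.21). How intron and exon differences compare depended on the scale: with the size factors of the gene counts, the intronic total of *Setd2* was at -0.70. With 1 size factor shared by introns and exons, its intronic total relative to the gene count was at -0.086, and that of *Kmt2b* at -0.026.

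**Figure D3:**
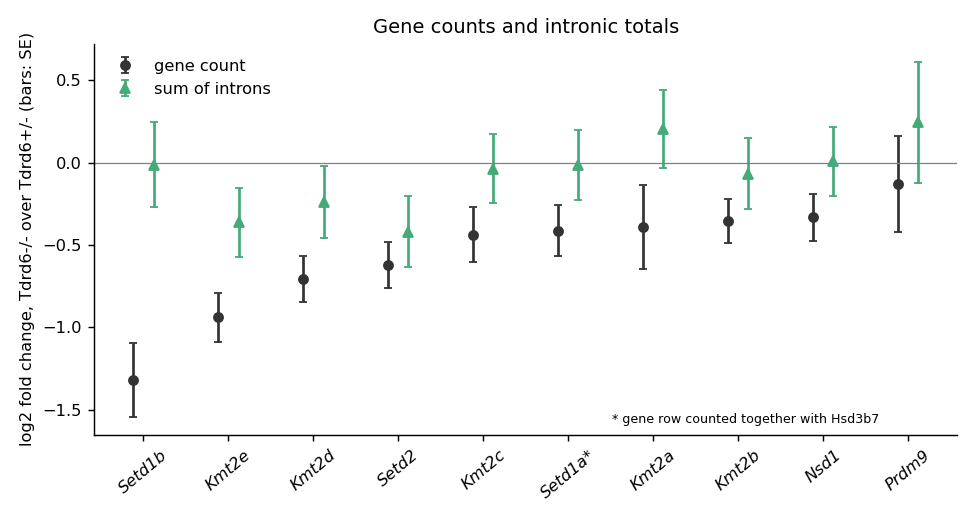
Log2 fold change of the gene count (black circles) and of the summed introns (green triangles), *Tdrd6*-/- over *Tdrd6*+/-, with SEs from edgeR as bars (n = 2 each). Gene and intron counts are scaled separately. The gene count lies below the intronic total for each of the 10 genes.

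The number of intronic counts per count on the gene rose in *Setd1b* from 0.385 and 0.372 in *Tdrd6*+/- to 0.714 and 0.828 in *Tdrd6*-/-, with no overlap. In the model that compared intronic and exonic counts its log2 change was 1.29 (SE 0.29), but its mean count was below the level that independent filtering kept, so that it had no adjusted p. With no independent filtering it passed (adjusted p = 0.00610, DESeq2). In the same model 4.10% of 4880 genes passed, and none of the 5 genes of the group that were tested did (DESeq2, 2 at an unadjusted p under 0.05). *Kmt2a* (0.59, SE 0.24, unadjusted p = 0.0143, DESeq2) and *Prdm9* (0.33, SE 0.46) were also below the level kept by the filter and had no adjusted p. The 5 that were tested ran from 0.19 in *Setd2* to 0.44 in *Kmt2d*. *Kmt2d* had 0.160 and 0.138 intronic counts per gene count in *Tdrd6*+/- and 0.165 and 0.169 in *Tdrd6*-/- (adjusted p = 0.343, DESeq2). *Kmt2e* had 1.19 and 0.893 against 1.30 and 1.23.

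No single intron of the 9 genes passed for a difference in use relative to the other introns of its gene, of the 30 that were deep enough to be tested (DESeq2, with 3 at an unadjusted p under 0.05). Over all genes 2.17% of 26394 introns passed with DESeq2. With edgeR's usage test only 2 did, so the absence of these 30 there carries little weight. The smallest p was that of intron 18 of *Setd2*, with 119 and 100 counts in *Tdrd6*+/- and 128 and 119 in *Tdrd6*-/-, while 20 of the 22 introns of *Setd2* were lower in level in *Tdrd6*-/- (log2 change 0.67, SE 0.25, adjusted p = 0.190, DESeq2). It passed when the gene count was taken as the reference (0.88, adjusted p = 0.0709, DESeq2, range over the alternatives 0.0709 to 1.00). With that reference 1268 introns passed over all genes, against 574 in the main fit. Of the 27 introns of *Kmt2e*, intron 15 at chr5:23486401-23491446 had 396 and 283 counts against 372 and 289 and overlapped, also when scaled, where 21 of the 25 with at least 40 counts were lower in level. The 5 unannotated junctions had counts in all samples. In *Kmt2d* junction 120 had 37 and 33 reads against 11 and 6, while junctions 118 (18 and 36 against 27 and 15) and 119 (15 and 36 against 23 and 22) overlapped, in reads and in CPM. That of *Nsd1* (24 and 33 against 35 and 21) overlapped on both scales too. That of *Setd2* had 34 and 42 against 35 and 29 reads, and scaled for library size its 1.30 and 1.51 CPM in *Tdrd6*+/- lay above the 1.11 and 0.906 CPM in *Tdrd6*-/-.

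Most genes of the related lists did not pass for gene expression, which with 2 samples per genotype does not show them to be equal. Of 59 genes in 10 lists of complex subunits, related methyltransferases, demethylases, readers and PRDM9 partners, 57 were tested, 6 were lower and none higher (edgeR, and likewise DESeq2, with 9 lower and 0 higher at an unadjusted p under 0.05), with a median log2 fold change of -0.01 against 0.01 over all genes. Over all genes 3.78% were called lower and 1.02% higher. Of the 6, *Ncoa6*, *Ash1l*, *Nsd2*, *Nsd3* and *Setd5* have at least 8000 bp of exon, and 188 of all 1567 tested genes of that length were lower. In the list set up as other H3K36 methyltransferases 4 of the 6 genes were lower. Genes entered it by name, and whether each acts on H3K36 was not examined here. *Ash1l*, which places H3K36me2, had 5186 and 5222 counts in *Tdrd6*+/- and 4111 and 3332 in *Tdrd6*-/- (log2 fold change -0.72, adjusted p = 0.00348, edgeR). *Nsd2* (-0.56, adjusted p = 0.0180, edgeR) and *Nsd3* (-0.58, adjusted p = 0.0257), the relatives of *Nsd1*, and *Setd5* (-0.61, adjusted p = 0.0143) were the others. *Setd3* (-0.01) and *Setmar* (-0.09) did not pass. The list median was -0.57.

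In the remaining lists 2 genes passed. *Ncoa6*, a subunit of the KMT2C and KMT2D complexes, had 2798 and 3200 counts in *Tdrd6*+/- and 2372 and 2309 in *Tdrd6*-/- (log2 fold change -0.59, adjusted p = 0.0140, edgeR). The other 3 subunits particular to these complexes, *Kdm6a* (-0.0032), *Paxip1* (-0.04) and *Pagr1a* (0.07), did not pass. *Pagr1a* shares its row with other genes, so its value is that of the merged row. *Morf4l1*, the chromodomain reader of H3K36 methylation also called MRG15, had 8046 and 6879 against 5777 and 4941 counts (-0.72, adjusted p = 0.00451, edgeR), as 1 of 16 tested readers. Without *Tdrd6*-/- replicate 2 none of the 6 passed (adjusted p = 0.150 to 0.537, edgeR), nor did any with no filter on low counts.

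None of the 4 core subunits that all these complexes share passed, *Dpy30* having the largest value (0.37, adjusted p = 0.405, edgeR). The same held for the 3 SET1 subunits (largest *Bod1l*, -0.21) and the 4 subunits of the KMT2A and KMT2B complexes (largest *Psip1*, 0.16). It held for the 4 tested other H3K4 methyltransferases (largest *Setd7*, -0.55, at 32, 38, 40 and 16 counts), the 6 H3K4 demethylases (largest *Kdm1b*, 0.41), the 5 H3K36 demethylases (largest *Kdm2a*, -0.27) and the 6 PRDM9 partners (largest *Cdyl*, 0.31). At an unadjusted p under 0.05 these lists held 2 genes, *Kdm5b* and *Kdm2a*, both lower. The list medians were -0.01 to 0.04 for these subunit lists, -0.02 for that of KMT2C and KMT2D, -0.06 for the readers, and -0.07 to 0.09 for the other H3K4 methyltransferases, the demethylases and the PRDM9 partners.

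**Figure D4:**
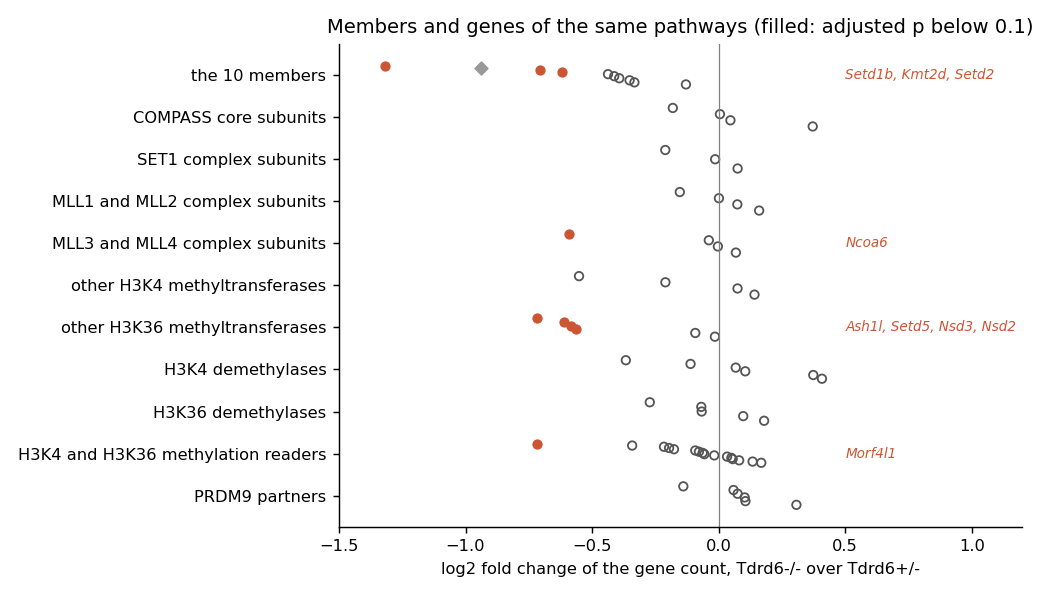
Log2 fold change of the gene count, *Tdrd6*-/- over *Tdrd6*+/-, for the 10 genes and the tested genes of 10 related lists. Filled points have an adjusted p below 0.1 (edgeR, over 16555 genes) and are named at the right, open points do not, and the grey diamond is *Kmt2e*, shown without a test. All filled points lie left of 0.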

How the data were processed

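Ribosomal RNA was depleted and directional libraries were sequenced. The authors used GSNAP for alignment to mm10, with the annotation of Ensembl release 75, and deposited whole-number counts, not normalized, per gene, exon segment and junction, and per intron. The submitters' processing notes name bcl2fastq 1.8.4. The counting program and its use of strand are not given in the sources used here. The deposited counts carry no coordinates. These came from the GENCODE M21 annotation of mm10, limited to older transcripts, with segments placed where all numbers matched (90.4% of genes, and *Kmt2b*, *Kmt2c*, *Kmt2d*, *Kmt2e*, *Setd1b* and *Nsd1* here). *Kmt2a*, *Setd2* and *Prdm9* are ordered by number only.

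Gene counts and intronic totals were tested by quasi-likelihood in edgeR 4.0.16 after filterByExpr and TMM. DESeq2 1.42.0 in R 4.3.3 tested the use of segments, junctions and introns with at least 10 counts, and the relative intronic total. The test was a likelihood ratio test of genotype by feature, with independent filtering. A segment or junction was set against the rest of its gene count, and an intron against the other introns of its gene. The intronic total was set against the whole gene count. Adjusted p (Benjamini-Hochberg) was over all features, at a false discovery rate of 0.1. Merged genes, such as that of *Setd1a*, were left out of the tests of segment and junction use and of the relative intronic total; introns of *Setd1a* have rows of their own and entered the intron test. A segment's level is its count over the TMM-scaled gene library. A fragment can count on several segments. Scripts were tested on simulated data.

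The genes, lists and tests were chosen with earlier results of these data known. Named are the 10 genes, at most 5 segments, junctions or introns of each past the threshold (more where few remained), otherwise the one of smallest p, and list genes past the threshold or with the largest change of their list. Alternatives were other tools, scalings, filters, a rate of 0.05, a replicate block and leaving out each sample. No strong pairing of the samples by replicate number was seen, though 2 samples per genotype cannot exclude one. *Prdm7* was not analysed here.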

Additional observations from a re-analysis of the deposited data

How the results depend on the processing

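Of the 9 tested genes 3 passed for gene expression. None did with no filter on low counts, and leaving out 1 sample gave 1 to 5, the lowest without *Tdrd6*-/- replicate 2 and the highest without *Tdrd6*-/- replicate 1. The replicate block gave 4 for gene expression and 6 against 7 for segments and junctions. The correlation of deviations of samples with the same number was -0.10 over genes. This showed no strong pairing by number, but with 2 samples per genotype it cannot exclude one. A crossed replicate block, chosen after seeing the data, also gave 4 and 6. Over all genes the replicate block gave 1046 calls against 794, and over all introns 881 against 574. In the other fits it gave fewer. Segments and junctions had 304 against 327, intronic totals 189 against 214, and relative intronic totals 115 against 200. The crossed block gave 1175 genes and 255 introns. The 7 segments of *Kmt2d* became 0 with edgeR's usage test and 0 to 5 when a sample was left out. With no independent filtering, segments 2, 55, 56 and 58 of *Kmt2d* and its junction of segments 56 and 55 passed, and segments 50, 54 and 57 did not. The intronic total relative to the gene count went from 0 genes to 1 (*Setd1b*) with no independent filtering, and intron use from 0 to 1 (*Setd2*) against the gene count. The cause was not tested.

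Direction changed only for values that had not passed. Gene expression on the log2 scale ran from -1.001 to 0.044 for *Kmt2a* and from -0.47 to 0.020 for *Bod1l* when 1 sample was left out. Intronic totals then ran from -0.19 to 0.50 for *Kmt2a*, to 0.036 at most for *Kmt2b*, from -0.37 to 0.23 for *Kmt2c*, from -0.17 to 0.12 for *Setd1a*, from -0.34 to 0.39 for *Setd1b* and from -0.13 to 0.14 for *Nsd1*. With DESeq2 or its size factors the intronic total of *Nsd1* was -0.011 in both, and with the size factors of the gene counts it was -0.26, beside -0.024 for *Kmt2a* and -0.020 for *Prdm9*. That of *Setd1b* was 0.028 with the replicate block and 0.018 with the crossed block. With 1 shared size factor the intronic total relative to the gene count was -0.026 for *Kmt2b* and -0.086 for *Setd2*.

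Over all genes 257 to 1064 passed when 1 sample was left out, over segments and junctions 51 to 762 and over introns 4 to 1136. With edgeR's usage test 81 segments and junctions passed against 327, and 2 introns against 574. With no filter 75 genes passed. The median level of the 9 genes, 7.49 CPM per kb, changed by less than the spread between samples under all alternatives. With 2 samples per genotype, a segment below a mean of 53.4 counts or an intron below 94.99 was not tested, which left out most introns of these genes.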
